A study of Mus musculus with 14 samples.

Results

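Bex1, Bex2, Bex4, Bex6 and Uchl1 were followed across wild-type and Trincr1-/- mouse embryonic stem cells (ESCs) in 2 media, as 5 genes of the 41204 in the RNA-seq table. Uchl1 was lower in Trincr1-/- ESCs in both media, at 20.9% of wild type in 2i + LIF and 31.5% in PD + LIF. Bex1 was at 34.5% of wild type in 2i + LIF and at 105% in PD + LIF. Bex4 was at 44.9% and 70.3%, although the second value depended on how reads shared with Bex1 were counted. Bex2 was at 91.1% and 119%, and Bex6 was listed at 0 in all 8 samples. The 5 genes were chosen by name, from the differences between knockout and wild-type ESCs in these same samples. Their genotype differences are therefore given as a description, without a test.

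The ESCs came from a cross of C57BL/6(F) x 129/sv(M) mice and were either wild type or Trincr1-ko. Trincr1 is the long noncoding RNA gene Gm2694, from which exons 2 to 4 were removed with a pair of guide RNAs, and the labels do not say how many knockout clones were sequenced. The medium called 2i + LIF holds the MEK inhibitor PD0325901 at 1.0 μM, the GSK3 inhibitor CHIR99021 at 3.0 μM, and leukemia inhibitory factor (LIF) at 1000 units per ml. For PD + LIF, cells were kept for 24 h in 2i + LIF and then for 4 days with PD0325901 and LIF but without CHIR99021, so both media contained the MEK inhibitor. Each of the 4 combinations of genotype and medium had 2 samples, named replicate 1 and 2, and nothing in the labels says that they came from separate cultures, so that p-values measure the spread between these samples, which may be technical. A second experiment sequenced RNA pulled down with FLAG-tagged TRIM71, the RNA-binding protein that associates with Trincr1, from ESCs that overexpressed it in 2i + LIF.

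The targeted gene was first compared with the labels. Gm2694 was at 5.71 and 9.45 FPKM (FPKM counts the fragments of a transcript, scaled by its length and by the depth of the library) in wild-type ESCs in 2i + LIF, and at 0.0754 and 0 FPKM in Trincr1-/- ESCs. In PD + LIF it was at 6.18 and 6.56 FPKM in wild type and at 1.38 and 0.746 FPKM in the knockout, so residual signal was present there. Low FPKM values step by the worth of 1 fragment, and these steps gave an estimated depth of 10.3 to 14.1 M fragments per sample. The Y-linked markers were detected in every group, with summed levels of 36.4 to 44.5 FPKM, and the 7 ESC markers summed to 1771 FPKM in both wild-type samples in 2i + LIF.

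The Bex (brain expressed X-linked) genes encode short, largely unstructured adaptor proteins, most of them from a cluster on the X chromosome that also holds the Tceal (transcription elongation factor A-like) genes. Bex1 and Bex3 are known to bind the p75 neurotrophin receptor, and the Bex genes are best known for their high expression in brain. Uchl1 encodes a ubiquitin C-terminal hydrolase, an enzyme that releases ubiquitin from small adducts and is very abundant in neurons.

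In the coordinates of the deposited table, which match GRCm38, Bex2, Bex4 and Bex1 lie at chrX:136066563-136068236, chrX:136138995-136140443 and chrX:136213971-136215513. Bex2 and Bex1 are on the minus strand and Bex4 is on the plus strand. Uchl1 is at chr5:66676097-66687231 and Bex6 at chr16:32186185-32186949. The 250 bases before the RefSeq start site (GRCm38.p6) are shown for the 4 genes with signal because Bex1 and Bex4 are near copies there, while Uchl1 is not related to them. The windows are chrX:136215514-136215763 (minus strand) for Bex1, chrX:136138746-136138995 (plus strand) for Bex4, chrX:136068237-136068486 (minus strand) for Bex2 and chr5:66675871-66676120 (plus strand) for Uchl1. They read 5′ to 3′, and capitals mark the letters GGGCGG (a GC box) and CACGTG (an E-box) found on either strand, of which the last capitals of Bex1 and Bex2 are the beginning of a match that runs across the start site.
Bex1: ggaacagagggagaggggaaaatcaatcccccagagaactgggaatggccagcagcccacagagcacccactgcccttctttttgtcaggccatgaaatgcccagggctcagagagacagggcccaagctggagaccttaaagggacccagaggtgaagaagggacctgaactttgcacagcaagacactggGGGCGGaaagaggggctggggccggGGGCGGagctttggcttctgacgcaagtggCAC
Bex4: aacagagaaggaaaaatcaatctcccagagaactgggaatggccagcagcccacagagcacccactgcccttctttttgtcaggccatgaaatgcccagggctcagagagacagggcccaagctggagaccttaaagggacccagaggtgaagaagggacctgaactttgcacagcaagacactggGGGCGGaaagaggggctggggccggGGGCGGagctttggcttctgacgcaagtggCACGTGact
Bex2: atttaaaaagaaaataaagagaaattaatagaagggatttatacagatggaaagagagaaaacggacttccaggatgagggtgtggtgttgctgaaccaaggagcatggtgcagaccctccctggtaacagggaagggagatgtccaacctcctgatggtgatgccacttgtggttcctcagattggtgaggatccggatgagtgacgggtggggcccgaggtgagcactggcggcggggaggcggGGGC
Uchl1: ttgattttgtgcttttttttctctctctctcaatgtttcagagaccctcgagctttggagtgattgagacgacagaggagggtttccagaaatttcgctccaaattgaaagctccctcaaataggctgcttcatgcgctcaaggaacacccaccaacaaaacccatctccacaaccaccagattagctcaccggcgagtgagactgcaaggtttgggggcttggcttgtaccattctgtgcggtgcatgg

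Of 240 aligned bases, 237 were identical between the Bex1 and Bex4 windows, with no gap. The 3 differences were G15A, G18A and C29T, with the Bex1 base first, then the position from 1 at the 5′ end of the Bex1 window, then the Bex4 base. Both held a pair of GC boxes and an E-box in the same arrangement, with the GC boxes beginning 58 and 33 bases before the start site in Bex1 and 64 and 39 bases before it in Bex4. Bex2 resembled Bex3 instead, with 148 of 149 aligned bases identical, and Uchl1 aligned with none of the Bex windows over more than 31 bases. No match to either motif was present from 250 bases before to 50 after the start sites of Uchl1 and Bex6. Over the same span, Bex3 and its relative Tceal8 each held 1 GC box and 1 E-box. Bex2 and the relative Tceal9 each held 1 GC box and no E-box, so the 2 motifs are not particular to Bex1 and Bex4. Among 32851 windows of 300 bases around start sites, 35.7% held GGGCGG and 7.15% held CACGTG. Beside these nearly identical windows, Bex1 and Bex4 in the knockout were at 34.5% and 44.9% of wild type in 2i + LIF. In PD + LIF they were at 105% and 70.3% as deposited. Any link between the windows and these levels was not tested.

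Bex1 had the highest level of the 5 genes, 360th from the highest mean among the 15430 genes tested. In 2i + LIF it was at 217 and 233 FPKM in wild type and at 76.9 and 78.5 FPKM in the knockout. In PD + LIF it was at 213 and 247 FPKM in wild type and at 255 and 230.6 FPKM in the knockout. The 2 knockout samples in 2i + LIF were thus the low ones, and the other 3 groups overlapped. The mean of 225 ± 11.8 FPKM (SD, n = 2) in wild-type ESCs in 2i + LIF was 2.90-fold above the 77.7 ± 1.18 FPKM of the knockout. On the log2(FPKM + 1) scale the genotype difference was -1.52 ± 0.08 (SE of the limma fit), the 24th lowest of the genes tested. In PD + LIF the means were 230.2 ± 23.8 and 242.8 ± 17.2 FPKM, and the log2 difference was 0.08 ± 0.08. The difference between the media in the genotype effect was 1.60 ± 0.11, the 39th highest of all genes tested.

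Uchl1 was lowest in the knockout in either medium. Wild-type ESCs were at 42.2 and 52.8 FPKM in 2i + LIF and at 62.3 and 71.7 FPKM in PD + LIF. Knockout ESCs were at 9.99 and 9.88 FPKM in 2i + LIF and at 23.0 and 19.2 FPKM in PD + LIF. No group overlapped another, and the order from high to low was wild type in PD + LIF, wild type in 2i + LIF, knockout in PD + LIF and knockout in 2i + LIF. The means in 2i + LIF were 47.5 ± 7.50 and 9.94 ± 0.080 FPKM (SD, n = 2), which is 4.78-fold lower in the knockout, and those in PD + LIF were 67.0 ± 6.66 and 21.1 ± 2.67 FPKM, 3.18-fold lower. The log2 differences of -2.14 ± 0.13 and -1.62 ± 0.13 ranked 10th and 19th lowest of the genes tested, and differed by 0.52 ± 0.18. Uchl1os, the gene annotated antisense to Uchl1, was listed at 0 in 7 samples and at 0.0485 FPKM in 1 wild-type sample in PD + LIF.

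Bex4 stood between these patterns as deposited. It was at 118 and 132 FPKM in wild type and at 54.5 and 57.8 FPKM in the knockout in 2i + LIF. In PD + LIF it was at 84.7 and 92.1 FPKM in wild type and at 65.7 and 58.7 FPKM in the knockout. No group overlapped the next in the order of wild type in 2i + LIF, wild type in PD + LIF, knockout in PD + LIF and knockout in 2i + LIF. The means were 125 ± 9.96 against 56.2 ± 2.28 FPKM in 2i + LIF and 88.4 ± 5.23 against 62.2 ± 4.93 FPKM in PD + LIF (SD, n = 2). The log2 difference was -1.14 ± 0.08 in 2i + LIF, the 66th lowest, and -0.50 ± 0.08 in PD + LIF, the 796th lowest.

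Bex2 moved little between genotypes. It was at 49.5 and 54.3 FPKM in wild type and at 48.9 and 45.7 FPKM in the knockout in 2i + LIF, and at 33.2 and 39.9 FPKM in wild type and 44.7 and 42.2 FPKM in the knockout in PD + LIF. The genotypes did not overlap in either medium, but in both media the gap between them was smaller than the spread within a group. The log2 differences were -0.13 ± 0.09 and 0.25 ± 0.09, of opposite sign. Bex6, which lies on chromosome 16, did not enter any fit, and a level behind 3 fragments would have been 0.445 to 0.609 FPKM at the estimated depths, so that a lower level was not detectable.

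**Figure D1:**
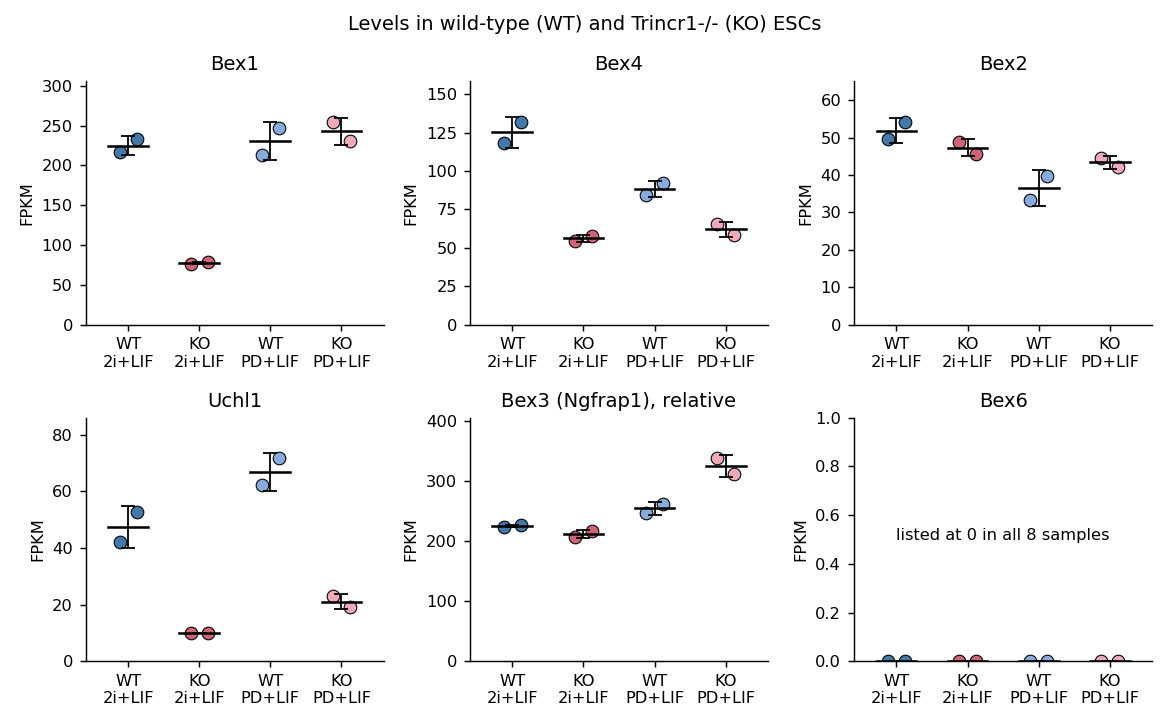
Levels of the 5 genes and of the relative Bex3 in FPKM, on linear axes from 0, in wild-type (WT) and Trincr1-/- (KO) ESCs in 2i + LIF and PD + LIF; points are samples, wide bars the means and error bars the SD (n = 2). Bex1 is low in the knockout in 2i + LIF, near 77.7 FPKM, and at 213 FPKM or more in the other groups, while Uchl1 is low in the knockout in both media.

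The estimated fragments behind each value were 522 to 2019 for Bex1, 319 to 454 for Bex2, 366 to 1001 for Bex4 and 94 to 812 for Uchl1, so that counting alone gives an SD of 2.23% to 10.3%. These fragment numbers cover counting error only. In whole cultures, fewer cells that express a gene and less RNA per cell cannot be told apart.

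Bex1 and Bex4 are near copies also at the beginning of their transcripts, which bears on the comparison of the media. Of the 50-base stretches of the Bex1 transcript (866 bases), 203 also occur in the Bex4 transcript (837 bases), all before the coding sequence. That is 24.8% of the stretches of Bex1 and 25.8% of those of Bex4. Another 65 stretches of Bex1 occur in the coding sequence of Bex2, and 115 stretches are shared by Bex2 and Bex3. Bex6 and Uchl1 shared no stretch with the others. The methods describe default program settings, and by default Cufflinks divides a read that maps to several places evenly among them. Its optional correction for such reads, and the length and layout of the reads, are not given in the sources used here.

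The Bex1 to Bex4 ratio within each sample, as deposited, was 1.83 and 1.77 in wild type and 1.41 and 1.36 in the knockout in 2i + LIF. In PD + LIF it was 2.52 and 2.68 in wild type and 3.88 and 3.93 in the knockout. The ratio was thus lower in the knockout than in wild type in 2i + LIF and higher in PD + LIF, without overlap. If fragments from shared 50-base stretches had been divided evenly between the genes, the levels solved back from the deposited values would put Bex4 in the knockout at 49.0% of wild type in 2i + LIF and 46.9% in PD + LIF. The same calculation gave 33.2% and 108% for Bex1 and 110% and 113% for Bex2. With stretches of 200 bases, near the length of a fragment, Bex4 was at 45.7% and 65.9% and Bex1 at 34.3% and 106%. Bex4 therefore was low in the knockout in both media under each of these countings, and whether its loss was smaller in PD + LIF turned on the counting. Bex1 was low in 2i + LIF and not in PD + LIF under all 3, and Bex2 changed its sign in 2i + LIF with the 50-base stretches but not with the 200-base ones. The even split was added after the data were seen.

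**Figure D2:**
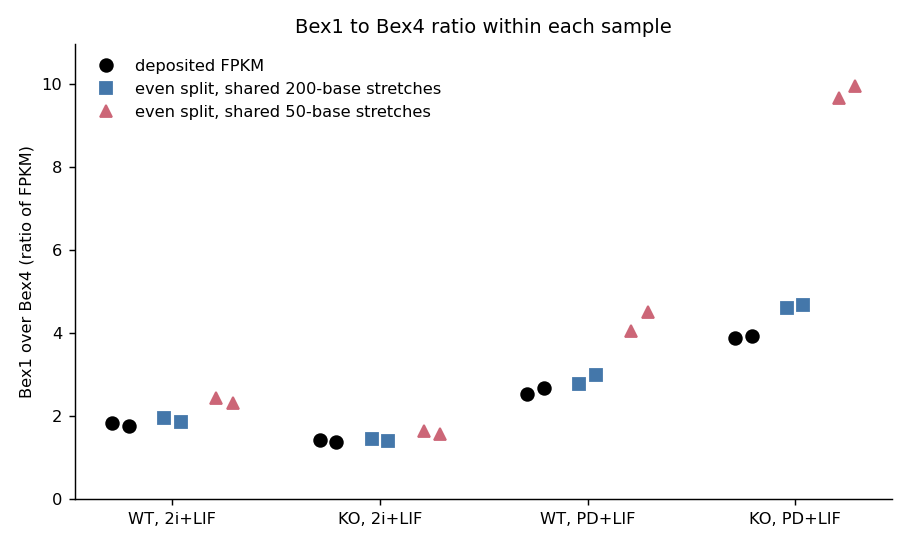
Ratio of Bex1 to Bex4 FPKM in each sample, as deposited (circles) and after solving back an even split of fragments from shared stretches of 200 bases (squares) or 50 bases (triangles), on a linear axis from 0. In the knockout in PD + LIF the ratio is 3.88 and 3.93 as deposited and 9.67 and 9.96 with shared 50-base stretches, the highest group in each case.

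The effect of the medium in wild-type ESCs did not choose the genes, although it shares the wild-type samples with the differences that did. The p-values of these genes for the medium are therefore not independent of that choice. Between PD + LIF and 2i + LIF, 3 of the 4 genes tested passed the threshold of 0.05, where 52.2% of all genes tested did. Uchl1 rose by 0.49 ± 0.13 on the log2 scale, to 141% of its level in 2i + LIF (limma adjusted p = 0.0145). Bex4 fell by 0.50 ± 0.08 (limma adjusted p = 0.00170) and Bex2 fell by 0.50 ± 0.09 (limma adjusted p = 0.00332), to 70.6% and 70.4%. For Bex1 the difference was 0.03 ± 0.08 (limma adjusted p = 0.782), and its samples in the 2 media overlapped. Uchl1 did not pass without replicate 1 of 2i + LIF (limma adjusted p = 0.0864) or without replicate 2 of PD + LIF (limma adjusted p = 0.0969). After quantile normalization the difference of Bex1 was 0.21 (limma adjusted p = 0.0288), and without that normalization it turned to -0.024 and -0.075 without the same 2 libraries. With an even split of shared 50-base stretches, wild-type Bex2 in PD + LIF was at 31.0% of its level in 2i + LIF and Bex4 at 58.4%. In knockout ESCs, given as a description, the differences between the media were 1.63 ± 0.08 for Bex1, 1.01 ± 0.13 for Uchl1, 0.14 ± 0.08 for Bex4 and -0.12 ± 0.09 for Bex2. With an even split of shared 50-base stretches they were 1.76 for Bex1, -0.82 for Bex4 and -1.56 for Bex2. With 200-base stretches they were 1.66, -0.03 and -0.12, so the sign for Bex4 and the size for Bex2 turned on the counting.

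The other Bex and Tceal genes were compared as the closest relatives. Of 9 listed, 8 were in the table and 6 passed the filter on low values. In 2i + LIF none of the 6 passed the limma test of the genotype, where 1.21% of all genes tested passed. None of the 6 had an unadjusted p under 0.05, which 91 of 594 X-linked genes had. Their log2 differences ranged from -0.24 to 0.01 with a median of -0.08, against a median of 0.0021 over all genes. In PD + LIF, Bex3 (listed under the older symbol Ngfrap1) and Tceal8 rose, 2 of 6 where 6.29% of all genes tested rose and 12.1% passed in either direction. The median of the relatives was 0.25, against 0.01 over all genes.

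Bex3, which encodes a p75 neurotrophin receptor partner linked to cell death, was at 223 and 226 FPKM in wild type and 207 and 217 FPKM in the knockout in 2i + LIF. In PD + LIF it was at 247 and 262 FPKM in wild type and 338 and 312 FPKM in the knockout. The knockout was lower without overlap in the first medium and higher without overlap in the second, by 0.35 ± 0.05 on the log2 scale (limma adjusted p = 0.00848). The difference of the genotype effect between media was 0.43 ± 0.07 (limma adjusted p = 0.0384), 1 of the 6 relatives past the threshold where 1.81% of all genes were. That call was lost in 11 of 15 alternative settings, with limma adjusted p from 0.0212 to 0.137, and without any 1 of the 8 libraries. The rise in PD + LIF did not pass without replicate 1 of wild type (limma adjusted p = 0.0605) or replicate 1 of the knockout (limma adjusted p = 0.0633) in PD + LIF.

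Tceal8, a transcription elongation factor A-like gene that lies between Bex4 and Bex1, was at 76.5 and 72.4 FPKM in wild type and 71.5 and 64.9 FPKM in the knockout in 2i + LIF. In PD + LIF it was at 41.5 and 48.8 FPKM in wild type and 60.5 and 59.7 FPKM in the knockout. The log2 difference was 0.41 ± 0.08 (limma adjusted p = 0.0245), and it did not pass without replicate 1 of wild type or either replicate of the knockout in PD + LIF (limma adjusted p = 0.0932 to 0.129). Tceal9 (listed as Wbp5) had means of 103 and 98.1 FPKM in 2i + LIF and 146 and 149 FPKM in PD + LIF in wild type and knockout, with log2 differences of -0.07 and 0.03. The remaining tested relatives, Tceal1, Tceal5 and Tceal7, had levels of 1.36 FPKM or less. Between the media in wild type, 3 relatives rose and 1 fell, so 4 of 6 passed where 52.2% of all genes did, and the count became 2 without replicate 1 of wild type in 2i + LIF.

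**Figure D3:**
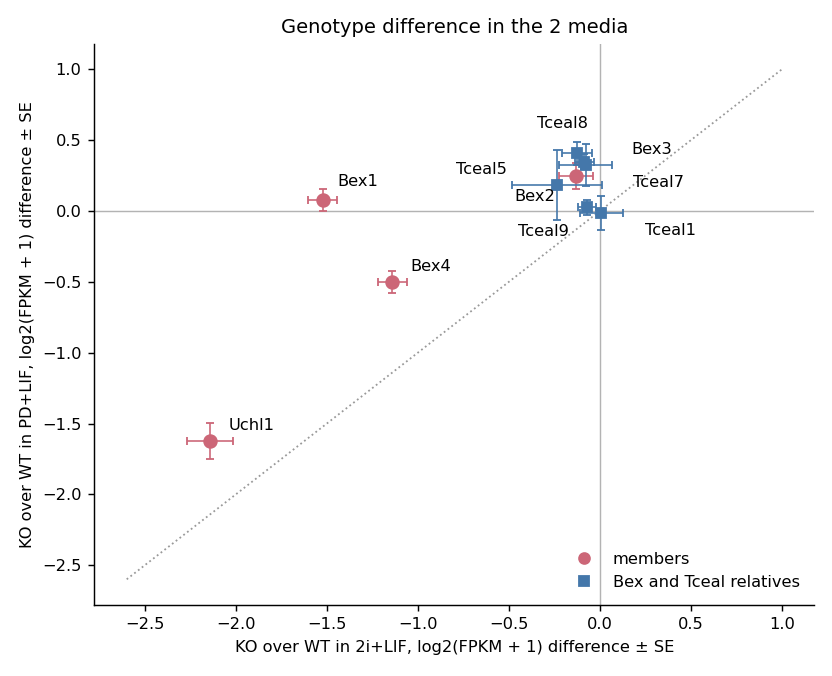
Difference between knockout (KO) and wild type (WT) on the log2(FPKM + 1) scale in 2i + LIF (x axis) and PD + LIF (y axis), with the standard error of the limma fit, for the 4 genes with signal (circles) and 6 relatives (squares); the dotted line marks equal differences. Bex1 sits at -1.52 and 0.08, Bex4 at -1.14 and -0.50 and Uchl1 at -2.14 and -1.62, while the relatives sit within -0.24 to 0.01 on the x axis.

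The genes around Bex1 and Bex4 were compared next. Because Bex1 and Bex4 were chosen from this same genotype difference, other genes lying above them in 2i + LIF says little about the region. Within 500 kb of the start of Bex1, 16 genes were tested, of which 13 were neither Bex1, Bex2 nor Bex4. None of the 13 passed the limma test in 2i + LIF, where 1.21% of all genes did, and their log2 differences ranged from -0.55 to 0.25. In PD + LIF 3 passed, where 12.1% of all genes did, and the differences of all 13 ranged from -0.49 to 0.41. Bex4 has Nxf3 and Tceal8 as nearest tested genes, 53740 and 28540 bases away, and Bex1 has Tceal5 at 10095 bases and Tceal7, whose span overlaps that of Bex1. The strand of the reads is not given in the sources used here, but Tceal7 was at 0.695 FPKM or less. Nxf3 had the lowest difference of the 13 in 2i + LIF at a mean of 0.441 FPKM (limma adjusted p = 0.129). Next to Bex2 lie Nxf3 and Arxes1, with differences of -0.55 and 0.06 in 2i + LIF, and next to Uchl1 on chromosome 5 lie Apbb2 and Gm6517, with -0.05 and 0.04.

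A wider list of 39 genes from the same X region had 29 tested. In 2i + LIF none passed the limma test, where 1.21% of all genes did. An unadjusted p under 0.05 was reached by 5 of the 29, near the share of 91 in 594 among the X-linked genes given below. In PD + LIF, Armcx1, an armadillo repeat gene, rose by 0.39 ± 0.08 (limma adjusted p = 0.0236) and Hnrnph2, an RNA-binding protein gene, by 0.24 ± 0.06 (limma adjusted p = 0.0367), while Gprasp2, a G protein-coupled receptor sorting gene, fell by 0.49 ± 0.10 (limma adjusted p = 0.0278). The share of 3 in 29 was near the 12.1% of all genes. Gprasp2 did not pass without any 1 of the 4 libraries of PD + LIF, Armcx1 without replicate 1 of wild type or either knockout replicate of PD + LIF, and Hnrnph2 without any library except replicate 2 of wild type in PD + LIF, with the largest limma adjusted p at 0.118, 0.134 and 0.143. Over all 594 X-linked genes other than Bex1, Bex2 and Bex4, 6 rose and 7 fell in 2i + LIF and 40 rose and 33 fell in PD + LIF, where 1.21% and 12.1% of all genes passed. The medians were 0.0007 and 0.025, against 0.0021 and 0.01 over all genes.

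**Figure D4:**
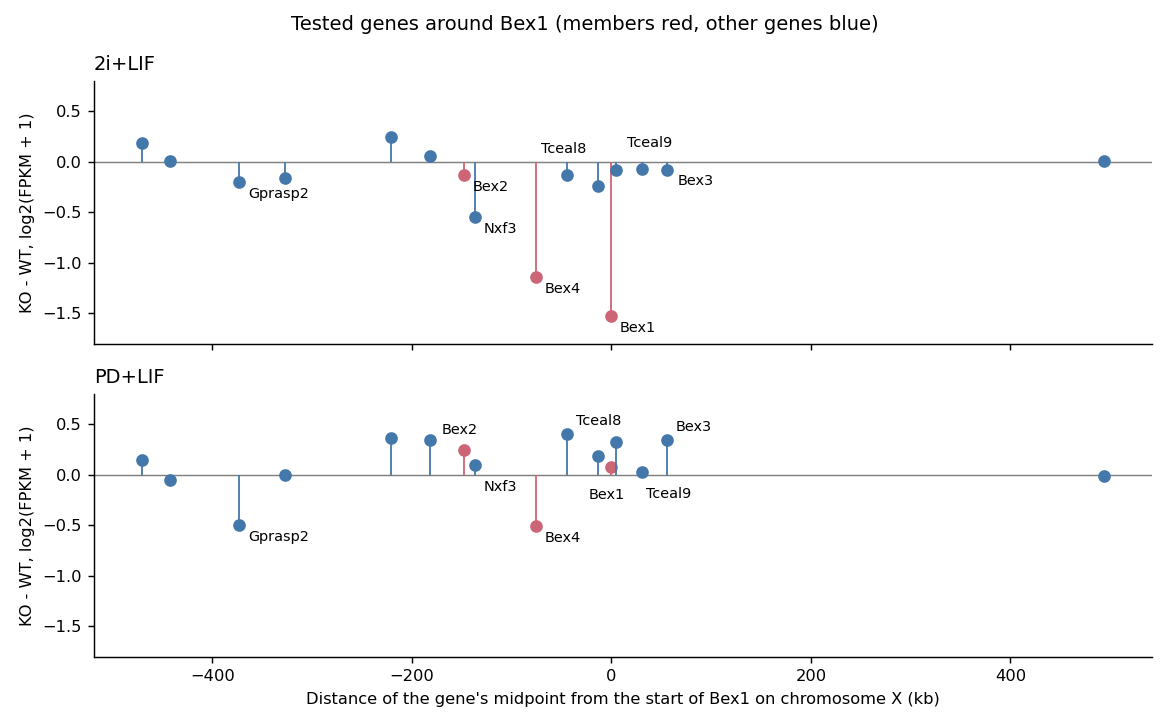
Difference between knockout (KO) and wild type (WT) on the log2(FPKM + 1) scale for the 16 tested genes within 500 kb of the start of Bex1, by the distance of the gene's midpoint from that start in kb, in 2i + LIF (top) and PD + LIF (bottom). In 2i + LIF Bex1 and Bex4 reach -1.52 and -1.14, and the 13 genes other than Bex1, Bex2 and Bex4 stay between -0.55 and 0.25.

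For Uchl1, 8 genes of ubiquitin C-terminal hydrolases and of ubiquitin itself were compared, and all 8 were tested. None passed the limma test of the genotype in 2i + LIF or in PD + LIF, where 1.21% and 12.1% of all genes tested did. In the 2 media, 1 and 2 of them had an unadjusted p under 0.05, as 91 and 164 of 594 X-linked genes did. Uchl3, the closest enzyme by name and function, was at 72.3 and 81.7 FPKM in wild type and 64.3 and 67.4 FPKM in the knockout in 2i + LIF, and at 65.8 and 64.0 FPKM and 60.1 and 63.6 FPKM in PD + LIF. Uchl5, a proteasome-associated hydrolase, lay between 30.0 and 44.1 FPKM over the 8 samples, and its genotypes overlapped in both media. Between the media in wild-type ESCs, 2 of the 8 passed, where 52.2% of all genes tested did. Uchl3 fell by 0.24 (limma adjusted p = 0.0185) and Ubb, a polyubiquitin gene, fell by 0.16 (limma adjusted p = 0.0180) from 2i + LIF to PD + LIF, while Uchl1 rose.

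Of 14 genes listed for signaling through the p75 neurotrophin receptor, with which Bex1 and Bex3 are known to associate, 11 were tested. In 2i + LIF none passed the limma test, where 1.21% of all genes did, and 2 had an unadjusted p under 0.05, as 91 of 594 X-linked genes did. In PD + LIF 4 of the 11 rose and none fell, where 6.29% of all genes rose and 12.1% passed in either direction. The median over the 11 was 0.19, against 0.01 over all genes. Ngfr, the receptor itself, was at 5.88 and 6.23 FPKM in wild type and 11.1 and 9.52 FPKM in the knockout in PD + LIF, a rise of 0.68 ± 0.12 (limma adjusted p = 0.0155). It did not pass without either wild-type replicate or without replicate 1 of the knockout in PD + LIF (limma adjusted p = 0.0652 to 0.105). The neurotrophin gene Ntf5 rose by 0.50, the receptor homolog Nradd by 0.37 and the adaptor Maged1 by 0.19 (limma adjusted p = 0.0456, 0.0409 and 0.0446). Their calls were lost in 11, 12 and 15 of 16 alternative settings, among them the removal of any 1 of the 4 libraries of PD + LIF.

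Genes with the most similar pattern were sought among 3514 genes with a mean of at least 1 FPKM and a range of at least 1 on the log2 scale. The 8 samples of this correlation fall in 4 groups and share their libraries, so that it describes a broad likeness of the group means. The order of the groups need not be the same. Tuft1 (Pearson's r = 0.974), Slc38a1, a glutamine transporter gene (r = 0.969), and Itga3, an integrin gene (r = 0.963), were most like Bex1. Slc38a1 had means of 19.3 and 11.0 FPKM in wild type and knockout in 2i + LIF and 22.9 and 22.4 FPKM in PD + LIF. Its low level in the knockout in 2i + LIF follows from its choice by likeness to Bex1. Svip (r = 0.982), Tspan15, a tetraspanin gene (r = 0.976), and Slc37a1 (r = 0.974) were most like Uchl1, and Svip had means of 2.12 and 0.722 FPKM in 2i + LIF and 2.45 and 1.03 FPKM in PD + LIF. For Bex4 they were Itgb7 (r = 0.952), Cyb5a, a cytochrome b5 gene (r = 0.951), and Hsp90ab1, a chaperone gene (r = 0.947). Cyb5a had means of 97.0 and 43.5 FPKM in 2i + LIF and 72.8 and 37.6 FPKM in PD + LIF. In the knockout Cyb5a was thus lower in PD + LIF than in 2i + LIF. Bex4 as deposited was higher there, at 62.2 against 56.2 FPKM. For Bex2 they were Zfp933 (r = 0.951), Rrp8 (r = 0.944) and Mfsd10 (r = 0.933).

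Markers of other cells were read beside these genes because Bex1 and Uchl1 are known from neurons. The 7 neural markers found in the table summed to 121 to 123 FPKM in wild type and 122 to 123 FPKM in the knockout in 2i + LIF, most of it Stmn2, and none of the 6 tested passed the limma test there. In PD + LIF they summed to 110.3 to 114 FPKM in wild type and 140.3 to 145 FPKM in the knockout. Sox1 and Stmn2 rose in the knockout there (limma adjusted p = 0.00998 and 0.00413), 2 of the 6 tested, where 6.29% of all genes rose. Elavl3 was lower there, at 1.85 against 2.62 FPKM (limma adjusted p = 0.104). The sum hides the effect of the medium, since Stmn2 fell from 113 to 75.5 FPKM in wild type. The other 5 of the 6 tested rose between the media, where 52.2% of all genes tested passed. Dcx, which marks young neurons, was at 0 in the 4 samples of 2i + LIF. The 7 ESC markers summed to 1116 to 1150.0 FPKM in wild type and 914 to 947 FPKM in the knockout in PD + LIF. Pou5f1, Nanog, Sox2, Esrrb and Tfcp2l1, 5 of the 7, fell in the knockout there, where 891 of the 15430 genes tested fell. The 6 trophoblast markers summed to 27.1 to 31.2 FPKM over both genotypes in 2i + LIF, to 114 to 117 FPKM in wild type in PD + LIF and to 187 FPKM in both knockout samples there. Most of the sum in PD + LIF was Krt8, with means of 66.9 and 144 FPKM in wild type and knockout, and Tfap2c, with 45.6 and 36.4 FPKM. Cdx2 went the other way between the media, from 0.746 to 0.073 FPKM in wild type and from 3.02 to 0.138 FPKM in the knockout. The 6 fibroblast markers summed to at most 7.16 FPKM, the 5 endoderm markers to at most 4.72 FPKM and the 6 germ cell markers to between 9.46 and 26.7 FPKM in any sample. In PD + LIF the fibroblast marker Col1a1, the endoderm marker Foxa2 and the trophoblast markers Krt8 and Hand1 rose and the germ cell marker Prdm1 fell, where 6.29% of all genes rose and 12.1% passed in either direction. In 2i + LIF, where 1.21% of all genes passed, the trophoblast marker Cdx2 rose (limma adjusted p = 0.0120) and no other listed marker passed. The part of these markers in the values of the Bex genes and Uchl1 was not tested.

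In the pulldown, association with TRIM71 was given as 1 deposited value for the FLAG-TRIM71 immunoprecipitation (IP) and 1 for the input, with no replicate value and no test. Uchl1 was at 5.8 FPKM in the input and at 13.2 in the scaled IP, a fold of 2.28, higher than that of 93.1% of the 9651 transcripts with an input above 2 FPKM. Bex4 was at 20.7 and 24.8, a fold of 1.20, and Bex1 at 110.2 and 52.0, a fold of 0.472, higher than those of 86.3% and 71.7% of transcripts. Bex2 was at 11.9 FPKM in the input and listed at 0 in the IP, as were 46.4% of these transcripts, and Bex6 had no value. None of the 4 reached the fold of 3 that 492 transcripts (5.1%) exceeded. With the scale of both libraries set after removal of the 100 highest transcripts, every fold was raised alike, and 1076 transcripts (11.1%) exceeded that fold. At this scale Uchl1 was at 4.61, Bex4 at 2.41 and Bex1 at 0.953. Among the relatives, Bex3 had a fold of 0.0374, Tceal9 of 0.184 and Tceal8 of 1.63. The depth of these libraries is unknown, and the control pulldown with an empty vector was not used here.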

How the data were processed

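Poly(A) RNA of 8 ESC samples was sequenced on an Illumina instrument. The authors aligned the reads with STAR 2.5.0 and deposited normalized FPKM values from Cufflinks 2.2.1 (per the submitters' processing notes), 1 per gene and sample. The methods name mm9, while the coordinates deposited match GRCm38. For the pulldown, the authors deposited FPKM per transcript and a scaled value, treated here as a score because its scale of 2.25 for the IP is their own, rounded to 1 decimal. Their column of folds was not used.

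Of 41260 entries, 1 per gene identifier was kept. The 15430 genes whose mean exceeded 0.2 FPKM were fitted as log2(FPKM + 1) with limma 3.58.1 (R 4.3.3), with all 4 groups in 1 model, a variance trend and 4 residual degrees of freedom. P-values were adjusted by Benjamini-Hochberg over all genes tested, with a threshold of 0.05. Fold changes on this scale understate those of low genes. The script was tested on simulated data. FPKM is per transcript length, and the fragment numbers were estimated from the steps between low values. Shared stretches were counted in GENCODE transcripts, and windows and motifs were read from RefSeq (GRCm38.p6) with Python 3.11.15 and Biopython 1.88.

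The genes and gene lists were chosen with earlier results of these data known. All 5 genes are named; of the relatives, X-region, ubiquitin and p75 receptor lists, every gene past the threshold in a genotype comparison is named up to 6, otherwise the 3 largest rises and falls, together with the nearest tested genes and the 3 most correlated ones. Ubb, Uchl3, Uchl5 and the marker genes were named after their values were seen. Alternatives covered the pseudocount, the filter, scaling, the variance trend, the replicate block, the samples fitted, the fold rule of the study, the scaling of the IP and the counting of shared reads.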

Additional observations from a re-analysis of the deposited data

Results flagged for a closer look

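Bex3, listed under the older symbol Ngfrap1, is singled out because its genotype effect differed between the media by a test of that difference. The difference was 0.43 on the log2(FPKM + 1) scale (limma adjusted p = 0.0384), from -0.08 in 2i + LIF to 0.35 in PD + LIF. It was lost in 11 of 15 alternative settings.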

How the results depend on the processing

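The counts of genes past the threshold moved most. With only the 4 samples compared in the fit, 0 genes passed the limma test of the genotype in 2i + LIF (186 in the fit of all groups), with 2106 at an unadjusted p under 0.05, and 316 in PD + LIF (1861), and 0 relatives, X-region genes and p75 receptor genes passed in PD + LIF. Leaving out 1 sample gave 40 to 113 genes in 2i + LIF, 335 to 1519 in PD + LIF and 3 to 34 for the difference between media (279), with 0 to 2 relatives, X-region genes and p75 receptor genes in PD + LIF and 2 to 4 relatives between the media. The fold rule of the study, which has no test, counted 304, 492 and 2331 genes for the genotype in 2i + LIF, in PD + LIF and for the medium (8048). Without the filter on low values 122 genes passed in 2i + LIF, 138 for the difference and 1 p75 receptor gene in PD + LIF. Without the variance trend 88 passed for the difference and 1 relative in PD + LIF. A pseudocount of 0.1 FPKM left 2 p75 receptor genes, and 75th percentile scaling 1. That scaling also changed the split of the difference between media from 153 higher and 126 lower to 191 and 91. With the replicate number as a replicate block, 111 genes passed in 2i + LIF and 39 for the difference. In PD + LIF, 1 X-region and 1 p75 receptor gene passed with this block. Over all genes tested, same-numbered samples did not deviate together (6 correlations of -0.0539 to 0.00634). Whether they share a batch that touches only part of the genes was not tested. The member log2 differences without 1 sample ranged from -0.027 to 0.18 for Bex1 in PD + LIF, 0.12 to 0.38 for Bex2 in PD + LIF, -1.22 to -1.06 and -0.58 to -0.42 for Bex4 in the 2 media and -2.30 to -1.98 for Uchl1 in 2i + LIF. In wild type the medium difference of Bex1 ranged from -0.075 to 0.13 without 1 sample and turned to -0.024 and -0.075 without replicate 1 of 2i + LIF and replicate 2 of PD + LIF. The even split of shared 50-base stretches, chosen after seeing the data, gave 0.14 for Bex2 and -1.01 for Bex4 in 2i + LIF and -1.07 for Bex4 in PD + LIF, where 200-base stretches gave -0.59. Scaling the IP without the highest transcripts gave folds of 0.953, 2.41 and 4.61 for Bex1, Bex4 and Uchl1. Apart from the countings' own construction and the smaller number of samples, the cause was not tested. With 2 samples per group, differences near the size of their standard error could not be resolved.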
